A study of Homo sapiens with 4 samples.

Results

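BRD8 chromatin immunoprecipitation sequencing (ChIP-seq) peaks were described over a stretch of the long arm of chromosome 8 (the 5 Mb that end at position 130000000, GRCh38), which holds MYC and NSMCE2. The peaks were chosen by position. A peak counted when its summit, the base of highest signal, lay in the stretch and more than 1 kb from either end of a protein-coding gene. The rule gave 313 of 12874 SW480 peaks and 163 of 22303 HCT116 peaks on chromosomes 1 to 22 and X. A further 3 SW480 and 5 HCT116 summits in the stretch lay at coding gene ends and are given apart. The stretch was chosen with the peak lists known, so its density is a description and carries no test.

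BRD8 is a bromodomain protein that works within TIP60/NuA4, a complex that acetylates histones. MYC encodes a transcription factor of cell growth whose level is high in many colorectal cancers, often through Wnt signalling. The long noncoding stretches on either side of MYC hold enhancers that act on it from a distance in a tissue-dependent way, several of them inside long noncoding RNA (lncRNA) genes such as CCAT1 and PVT1. NSMCE2, at the start of the stretch, encodes a SUMO ligase of the SMC5/6 complex, which maintains chromosomes during replication and repair.

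SW480 and HCT116 are established human colorectal cancer lines, grown in Leibovitz's L-15 and McCoy's 5A medium. Each gave 1 BRD8 ChIP library and 1 input library, 4 libraries in all, and neither line carries a label of treatment or genetic change. Chromatin was fixed for 10 minutes and cut with micrococcal nuclease. Each line thus has a single ChIP library (n = 1), so differences between SW480 and HCT116 have no replicate check, and the intervals given cover counting error or the spread among peaks only. The lists hold no read totals and no measure of DNA copy number. Local background is the level against which a summit was scored, and the lists do not say which library's reads gave it. It is not read here as BRD8 signal. The lowest local background of each list, taken here to stand for the mean coverage of its ChIP library, was 4.09 fragments in SW480 and 3.75 in HCT116, a ratio of 1.09.

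BRD8 peaks were dense in the stretch in both lines. SW480 had 6.26 peaks per 100 kb there (exact 95% Poisson interval 5.59 to 6.99), against 0.116 (0.0985 to 0.135) on the rest of chromosome 8 and 0.270 (0.265 to 0.276) on the rest of the genome. HCT116 had 3.26 per 100 kb (2.78 to 3.80), against 0.430 (0.396 to 0.466) and 0.437 (0.430 to 0.445). The stretch makes up 3.45% of chromosome 8, and it held 65.9% of the 475 SW480 peaks of that chromosome away from coding gene ends and 21.3% of the 765 HCT116 peaks. Among 619 consecutive 5 Mb windows of the genome it held the most such peaks in each line. On the rest of chromosome 8 SW480 had fewer peaks per length than HCT116, with a ratio of 0.269 (0.226 to 0.320). On the rest of the genome the ratio was 0.618 (0.602 to 0.636). Within the stretch the ratio of SW480 to HCT116 was 1.92 (1.59 to 2.32). With the HCT116 list cut to as many peaks as the SW480 list, that ratio was 4.17, and with 0.5 Mb taken off each end of the stretch it was 3.43.

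**Figure D1:**
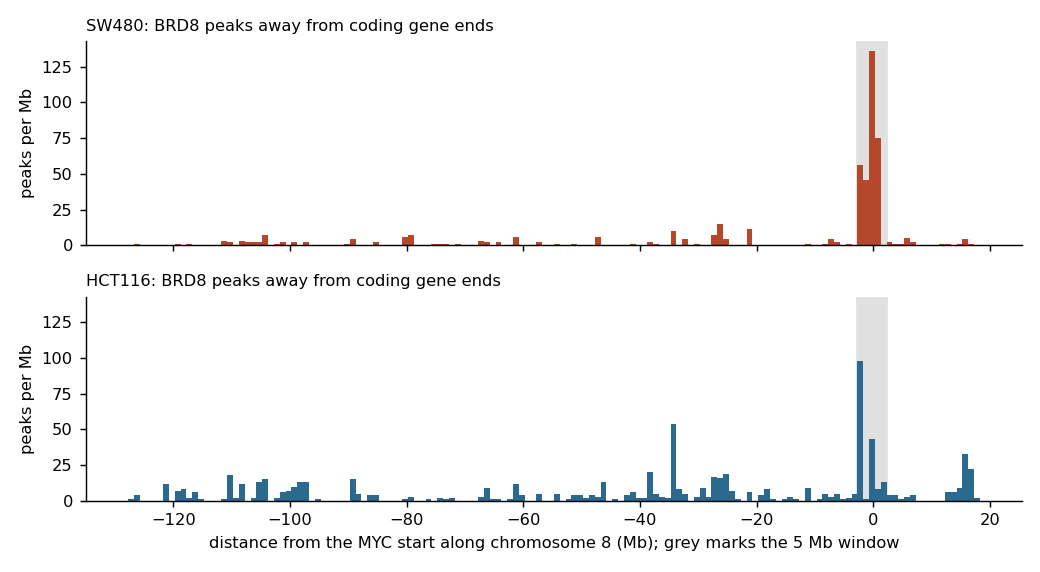
BRD8 peaks away from coding gene ends per Mb of chromosome 8 (vertical axis) against distance from the MYC start in Mb (horizontal axis), SW480 above and HCT116 below, with the 5 Mb stretch in grey. Outside the grey band no Mb holds more than 15 SW480 peaks or 54 HCT116 peaks, and the SW480 bars inside it reach 136.

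The 2 lines shared some dense bins of the stretch and differed in others. Of 50 bins of 100 kb, 17 (34.0%) held at least 5 SW480 peaks and 8 (16.0%) at least 5 HCT116 peaks. Genome-wide 1.24% of 30308 bins did so in SW480 and 1.94% in HCT116. In 4 bins both lines had at least 5 peaks, against 0.205% of bins genome-wide. A further 6 bins had at least 5 in SW480 and none in HCT116, against 0.637% genome-wide, and 2 had none in SW480 and at least 5 in HCT116, against 0.729%. No peak of either line lay in 16 bins. Over the 50 bins, which are neighbours within 1 library per line, the Spearman rho of SW480 and HCT116 counts was 0.335. The fullest SW480 bins lay upstream of MYC, with 41 peaks from 127 to 127.1 Mb, 23 in the next bin, 31 in the next and 34 from 127.3 to 127.4 Mb. The bin from 128.5 to 128.6 Mb held 21. The fullest HCT116 bins were at NSMCE2, with 25 peaks from 125.1 to 125.2 Mb and 29 from 125.2 to 125.3 Mb, then 27 from 125.6 to 125.7 Mb and 24 from 127.2 to 127.3 Mb.

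**Figure D2:**
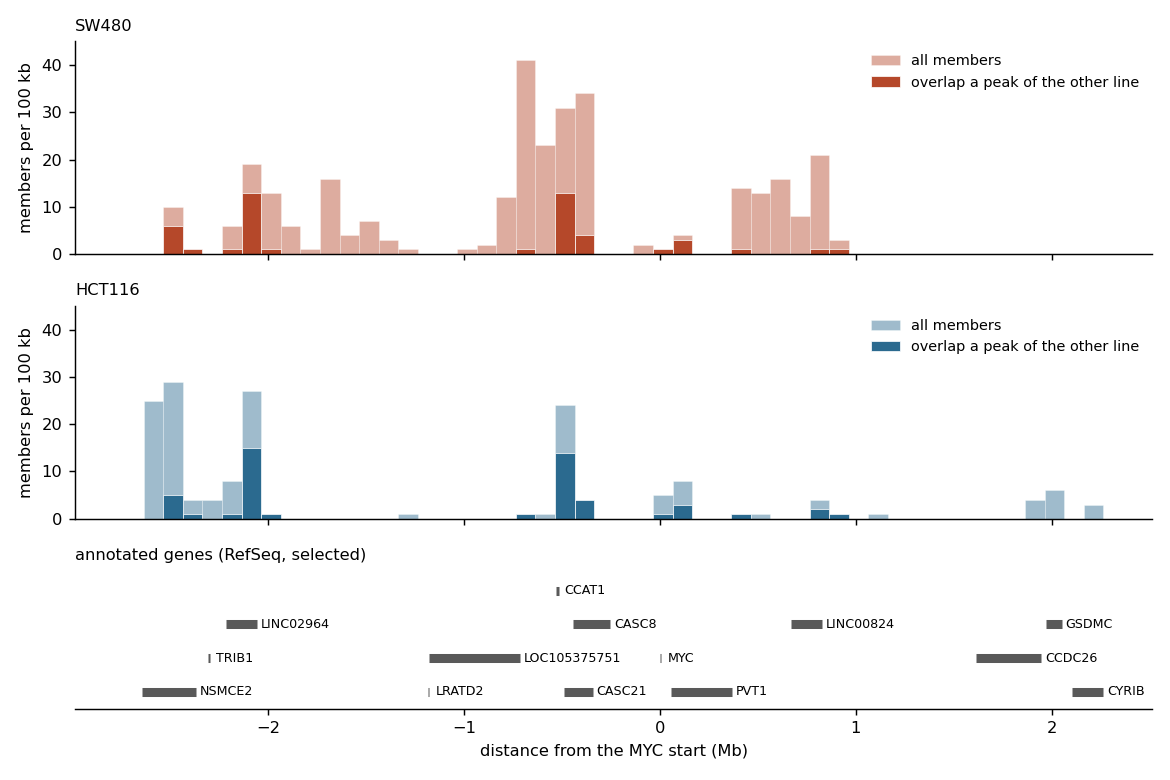
Peaks per 100 kb bin (vertical axis) against distance from the MYC start in Mb (horizontal axis), SW480 on top and HCT116 below it, with selected genes drawn underneath. Pale bars count all peaks and dark bars those that overlap a peak of the other line by at least 1 bp. The tallest SW480 bar, with 41 peaks, stands upstream of MYC at PCAT1, PCAT2 and PRNCR1, and the tallest HCT116 bar, with 29, stands at NSMCE2.

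NSMCE2 (125091860 to 125367120) was covered mainly in HCT116. It held 11 SW480 and 55 HCT116 peaks, which is 3.996 per 100 kb of the gene in SW480 and 19.98 in HCT116. The SW480 peaks lay between 125273911 and 125334435, so the first part of the gene was free of them, and the HCT116 peaks lay between 125113320 and 125334483. HCT116 regions covered 44.6 kb of the gene and SW480 regions 4.59 kb. The widest HCT116 region of the whole stretch lay here, at 125124460 to 125129780 with a fold enrichment of 4.46, and no SW480 region lay within 5 kb of it. Fold enrichment is the authors' own value for each peak: summit pileup plus 1, divided by local background plus 1, in fragments. The strongest SW480 peak of the gene, at 125278493 to 125278972, had a fold of 5.70 in SW480 and overlapped an HCT116 region with a fold of 3.36. Median folds in the gene were 3.74 in SW480 and 3.37 in HCT116. Where NSMCE2 adjoins WASHC5, a subunit of the actin-regulating WASH complex, each line had 1 further summit, with a fold of 3.41 in SW480 and 2.52 in HCT116. SQLE, which encodes squalene epoxidase of cholesterol synthesis and crosses the border of the stretch, held no peak in either line.

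The lncRNA genes after TRIB1 held BRD8 peaks in both lines. TRIB1 encodes a pseudokinase that directs the breakdown of C/EBP proteins. SW480 had no peak at it, the nearest lying 63.2 kb away, while HCT116 had a gene-end peak with a fold of 6.98 and 1 peak inside with a fold of 2.05. From the end of NSMCE2 to the end of LINC02964 (125367121 to 125680134) there were 19 SW480 and 34 HCT116 peaks, or 6.07 (3.65 to 9.48) and 10.9 (7.52 to 15.2) per 100 kb. Within LINC02964 itself there were 16 SW480 peaks and 25 HCT116 peaks. TRIB1AL held 4 SW480 and 3 HCT116 peaks. A TRIB1AL site at 125512579 to 125513628 in SW480 had the highest background of all 313, with 142 fragments of pileup over a background of 78.7, and the overlapping HCT116 region had 35 over 8.96. The folds at that site were 1.79 in SW480 and 3.61 in HCT116.

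The 872 kb from LINC02964 to LRATD2 hold no protein-coding gene, and peaks there were mostly of SW480. There were 57 in SW480 (6.53 per 100 kb, 4.95 to 8.47) and 10 in HCT116 (1.15, 0.550 to 2.11). The HCT116 peaks lay between 125682356 and 125700658 with 1 exception at 126456391, and 8 of the 10 overlapped a SW480 peak. The SW480 site of highest pileup, at 125685817 to 125689032, had 105 fragments over a background of 21.9 and a fold of 4.62. It overlapped 3 HCT116 regions with folds of 3.78, 3.30 and 2.79. Farther on, SW480 had 16 peaks from 126.0 to 126.1 Mb, and HCT116 had none in that bin. The highest SW480 fold of the interval, 5.81, was among those peaks, at 126053131 to 126054239.

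From LRATD2 to PRNCR1 (126552443 to 127092595) SW480 had 53 peaks, or 9.81 per 100 kb (7.35 to 12.8). HCT116 had 1, or 0.185 (0.00469 to 1.03), at 127034888. The genes here are lncRNA genes first described in prostate cancer, such as PCAT1 and PRNCR1, and the longer LOC105375751 that overlaps PCAT1. PCAT1 held 3 SW480 peaks with folds from 2.18 to 2.59, and PRNCR1 held 6 with folds from 2.34 to 4.73. PCAT2, which overlaps PRNCR1, held 5 SW480 peaks and 0 HCT116 peaks. LOC105375751 held 26 SW480 peaks and, away from coding gene ends, 0 HCT116 peaks. LOC105375753, a lncRNA gene nearer LRATD2, held 3 SW480 peaks, all at the lowest background of the list and with folds up to 4.52, and 0 HCT116 peaks. In HCT116 PCAT1 and PRNCR1 held 0 peaks, the nearest being 13.9 kb from PCAT1 and 44.99 kb from PRNCR1. A SW480 region between these genes, at 127025646 to 127030866, was 5221 bp wide with a fold of 5.15 and no overlapping HCT116 region. LRATD2, the coding gene at the start of this interval, had a gene-end peak in HCT116 alone, with a fold of 4.33. The summit of that peak, at 126558166, also lies inside LOC105375751 and is left out of its count above.

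The lncRNA genes CASC19, CCAT1, CASC21 and CASC8 formed the densest interval in SW480. From PRNCR1 to the end of CASC8 (127092596 to 127482139) there were 91 SW480 peaks, or 23.4 per 100 kb (18.8 to 28.7), and 29 HCT116 peaks, or 7.44 (4.99 to 10.7). CCAT1 (127207382 to 127219268), a lncRNA gene named for its expression in colon cancer, held peaks in both lines, with 5 SW480 and 6 HCT116 peaks of which 4 in each overlapped the other line. Its strongest SW480 region, at 127214769 to 127216851, had 57 fragments over a background of 12.1 and a fold of 4.42. The overlapping HCT116 region, at 127215731 to 127217164, had 25 over 5.16 and a fold of 4.22, and the summits lay 15 bp apart. CASC19 lies just before CCAT1. It held 5 SW480 peaks, with folds from 2.22 to 4.92, and 0 HCT116 peaks.

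CASC21 and CASC8 overlap, and 37 SW480 and 6 HCT116 peaks lay inside both genes. CASC21 held 45 SW480 and 12 HCT116 peaks, and CASC8 held 41 and 6. All 6 HCT116 peaks of CASC8 overlapped a SW480 peak. The SW480 peak with the highest −log10 q and no HCT116 region within 5 kb lay in both genes, at 127310214 to 127311650, with 46 fragments over a background of 5.53 and a fold of 7.20. POU5F1B, a retrotransposed copy of the pluripotency gene OCT4 that lies within CASC8, had 0 peaks in either line. The nearest SW480 summit, 13.5 kb away and 0.474 kb from CCAT2, had a fold of 3.76. No HCT116 peak lay within 55.2 kb of CCAT2.

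MYC itself had BRD8 at both ends in both lines. At the first end (127735434) the SW480 summit had 148 fragments over a background of 51.7 and a fold of 2.83. The overlapping HCT116 region had 30 over 9.55 and a fold of 2.94. At the other end (127742951) SW480 had 76 over 42.9, a fold of 1.75, and HCT116 had 27 over 9.18, a fold of 2.75. Pileup at MYC was therefore higher in SW480 and the local background was higher too, while the fold was not. Between the MYC ends HCT116 had 3 further peaks, with folds of 2.51, 2.10 and 2.65, and SW480 had none. The interval from CASC8 to PVT1 that contains MYC was sparse away from coding gene ends, with 2 SW480 peaks and 4 HCT116 peaks in 312 kb, the 3 inside MYC included. The 2 SW480 peaks lay close together at 127638561 and 127639450, with folds of 2.04 and 2.41. CASC11, a lncRNA gene beside MYC, held no summit in either line. An HCT116 summit lay 0.016 kb outside CASC11, on the side of MYC.

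PVT1, a lncRNA gene that starts after MYC and hosts several microRNAs, carried the peak of highest −log10 q of the stretch in both lines. At its start, SW480 had a region at 127793832 to 127796725 with 162 fragments over a background of 41.0, a fold of 3.88, and −log10 q was 41.0. HCT116 had one at 127793746 to 127797588 with 92 over 8.97, a fold of 9.32, and −log10 q was 54.7. These were the highest −log10 q of each line's peaks here, and the HCT116 fold was the highest of its 163. The microRNA gene MIR1204 lies 1.26 kb from the SW480 summit and 0.815 kb from the HCT116 summit. All PVT1 peaks, 5 in SW480 and 9 in HCT116, lay in the first part of the gene. The last summits were at 127854247 in SW480 and 127854351 in HCT116, and the gene runs on to 128101256 with none. MIR1205, MIR1206 and MIR1207, in that remaining part, lay at least 78.5 kb from any SW480 peak and 106 kb from any HCT116 peak. LINC02912, also known as TMEM75, lay 92.3 kb from the nearest SW480 peak and 92.2 kb from the nearest HCT116 peak.

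Past PVT1 the peaks were again mostly of SW480, up to a sharp end. From PVT1 to the start of LOC124902021 (128101257 to 128799893) SW480 had 75 peaks, or 10.7 per 100 kb (8.44 to 13.5), and HCT116 had 7, or 1.00 (0.403 to 2.06). LOC124902020 held 9 SW480 peaks with a median background of 17.2 and 1 HCT116 peak with a background of 7.53. LINC00824, a lncRNA gene, held 12 SW480 and 4 HCT116 peaks. The widest SW480 region of the stretch lay in it, at 128553056 to 128558804, with 83 fragments over a background of 32.0 and a fold of 2.55. An HCT116 region inside it had 33 over 5.74 and a fold of 5.05. The last SW480 peak of the stretch, at 128602967 to 128604887, had the highest SW480 fold here, 8.62, with 43 fragments over a background of 4.10. HCT116 had an overlapping peak there with a fold of 3.90.

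Beyond that peak SW480 had no further peak in the stretch, which left 1396 kb empty, and the next one away from coding gene ends was at 130533319. From LOC124902021 to 130000000 SW480 had 0 peaks (upper bound 0.307 per 100 kb) and HCT116 had 14 (1.17 per 100 kb, 0.638 to 1.957). GSDMC, which encodes a pore-forming gasdermin, held 6 HCT116 peaks with folds from 2.50 to 4.48. CYRIB, a regulator of the actin switch RAC1, crosses the border of the stretch and held 3 HCT116 peaks within it. Peaks of the gene past the border are not counted. Among the 3 was the HCT116 peak whose fold, 5.91, was next to that of PVT1, at 129939377 to 129940527. CCDC26 held 1. On the other side, SW480 had no peak away from coding gene ends in the first 274 kb of the stretch, and the last such peak before it was at 123396639. HCT116 peaks of this kind continued across both borders, with the nearest outside at 124976428 and 130015538. At the 1 kb limit, the farthest summit left out lay 736 bp from a coding gene end (MYC, HCT116), and the nearest one kept 1427 bp (also MYC, HCT116). No SW480 peak kept lay within 13.5 kb of a coding gene end.

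**Figure D3:**
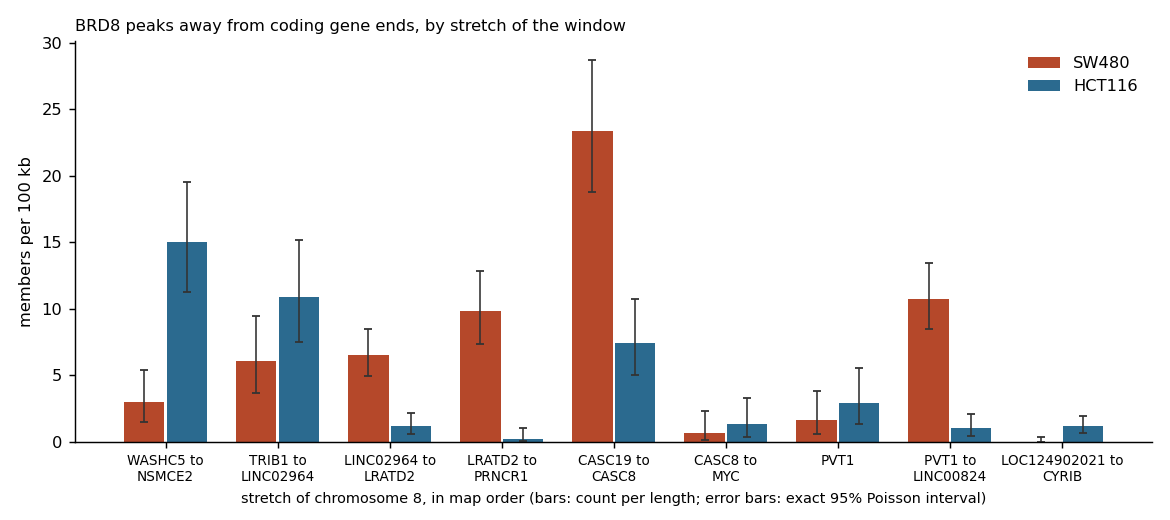
Peaks per 100 kb (vertical axis) in 9 intervals of the stretch in map order (horizontal axis), SW480 bars left of HCT116 bars, with exact 95% Poisson intervals. SW480 bars are higher from LINC02964 to CASC8 and from PVT1 to LINC00824, HCT116 bars are higher from WASHC5 to LINC02964 and from LOC124902021 to CYRIB, and the 2 lines' error bars overlap from TRIB1 to LINC02964, from CASC8 to MYC and in PVT1.

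Peaks of 1 line alone made up most of both sets. In SW480, 47 of 313 peaks (15.0%, 95% Wilson interval 11.5 to 19.4) shared 1 bp or more with an HCT116 peak, against 28.7% of all 8492 SW480 peaks away from coding gene ends. In HCT116, 50 of 163 (30.7%, 24.1 to 38.1) overlapped a SW480 peak, against 14.9% of all 13390. The SW480 share was below that of its list and the HCT116 share above it, in a stretch with 313 SW480 and 163 HCT116 peaks. Sharing was gathered at a few places. In NSMCE2 7 of 11 SW480 peaks were shared, from TRIB1 to LINC02964 10 of 19 and in PVT1 4 of 5. From CASC19 to CASC8 the number shared was the largest of the intervals, 17 of 91, but the share was not high. It was 18.7%, against 15.0% in the stretch and 28.7% of all SW480 peaks away from coding gene ends. In the first 2 bins past 127 Mb, with 1 HCT116 peak in each, 1 of 64 SW480 peaks was shared. From PVT1 to LINC00824, with 7 HCT116 peaks, 3 of 75 were shared. Few HCT116 peaks in a place leave few for SW480 peaks to overlap. Of the HCT116 peaks, 6 of 55 were shared in NSMCE2 and 18 of 29 from CASC19 to CASC8. Of the wide regions, 9 of 14 SW480 and 5 of 9 HCT116 regions of at least 2 kb overlapped the other line. The share for wide regions on the rest of the genome was not computed. A wider region also meets the 1 bp rule more easily, so these counts are not set against a baseline.

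Summit pileup and local background were recovered for every peak here from the deposited fold and p-value. SW480 peaks in the stretch had a median pileup of 36 fragments (34 to 38), against 21 on the rest of the genome, and a median background of 12.03 (10.8 to 12.7), against 5.19. HCT116 peaks had a median pileup of 24 (23 to 25), against 21, and a median background of 6.93 (6.37 to 7.46), against 5.21. Both quantities were thus higher here in each line, and by more in SW480. Median fold was 2.95 (2.81 to 3.07) in SW480, against 3.34 on the rest of the genome, and 3.14 (3.02 to 3.30) in HCT116, against 3.42. A background of at least 2 times the lowest level was found at 72.5% of the SW480 peaks here, against 26.01% elsewhere, and at 39.9% of the HCT116 peaks, against 14.5%.

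The background was not even along the stretch. In NSMCE2 the SW480 median was 4.09, with 9 of 11 peaks at the lowest level of the list, and the HCT116 median was 5.74. After a gap of 167 kb without a SW480 peak, the SW480 median from TRIB1 to LINC02964 was 28.9, which is 7.08 times the lowest level, and the HCT116 median was 8.68, or 2.32 times. From LINC02964 to LRATD2 the medians were 7.52 in SW480 and 7.84 in HCT116, from CASC19 to CASC8 13.8 and 6.46, in PVT1 41.0 and 7.96, and from PVT1 to LINC00824 10.8 and 5.74. SW480 background was therefore highest around TRIB1AL and at MYC and PVT1, which are not the intervals with most SW480 peaks. A peak on a higher background needs a higher pileup to enter a list. The lowest pileup of a SW480 peak was 14 where the background was under 6, 20 where it was from 6 to 12, 29 from 12 to 24 and 47 above that. The 33 SW480 peaks with a background of at least 24 had folds from 1.71 to 3.88, and no HCT116 peak had such a background. What raised the local background, and its part in the number of peaks called, was not tested.

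**Figure D4:**
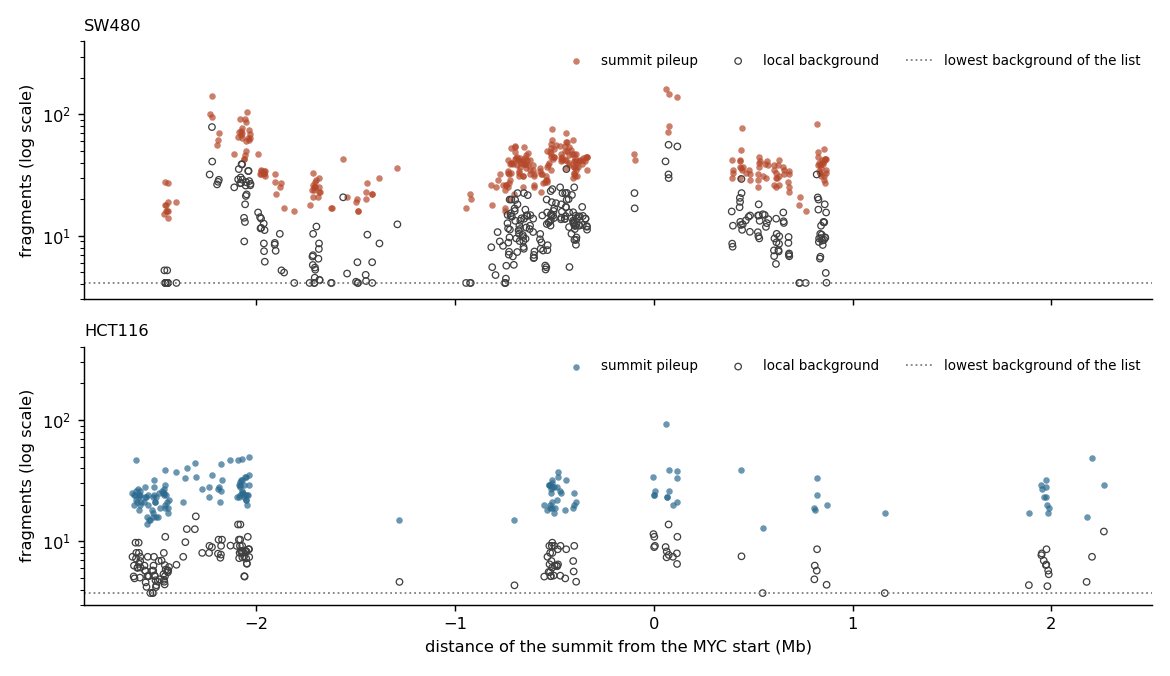
Summit pileup (filled points) and local background (open circles) in fragments on a log scale against distance from the MYC start in Mb, SW480 above and HCT116 below, with the lowest background of each list as a dotted line. SW480 backgrounds lie at the dotted line at 9 of 11 peaks in NSMCE2, at 5.19 at the other two, and reach 78.7 near TRIB1 and 56.2 in PVT1, while HCT116 backgrounds stay at or below 16.1.

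At regions found in both lines summit pileup and local background differed on the 2 sides of the NSMCE2 end. The 47 SW480 and 50 HCT116 shared peaks formed 56 overlapping pairs, since a wide region can meet several. In all 7 pairs inside NSMCE2 the SW480 pileup was the lower, with a median of 18 in SW480 and 24 in HCT116. In all 49 other pairs it was the higher, with a median of 68 in SW480 and 27 in HCT116. The SW480 value divided by the HCT116 value had a median of 0.718 (range 0.514 to 0.941) in NSMCE2 and 2.48 (1.24 to 5.25) elsewhere in the stretch. Background followed the same split. It was higher in SW480 in 1 of 7 pairs in NSMCE2 and in 48 of 49 others, with median ratios of 0.699 and 3.09. A pair exists only where both lists called a peak, and a call on a higher background needs a higher pileup. In the 49 pairs the median background was 24.2 in SW480 and 7.73 in HCT116. The split in pileup therefore cannot be told apart from the split in background. The fold was higher in SW480 in 4 of 7 and 19 of 49 pairs, with median ratios of 1.02 and 0.902. A wide SW480 region enters this count once for each HCT116 region it meets. With 1 HCT116 partner for each SW480 peak, the overlapping region of highest −log10 q, the median pileup ratio was 0.718 at 7 peaks in NSMCE2 and 2.28 at 40 elsewhere in the stretch, the background ratio 0.699 and 3.03, and the fold ratio 1.02 and 0.773. By the same pairing on the rest of the genome, 2392 SW480 peaks away from coding gene ends that overlapped an HCT116 peak had a median pileup ratio of 0.960, a background ratio of 1.37 and a fold ratio of 0.692. The lowest backgrounds of the 2 lists differ by a ratio of 1.09. The pairs are neighbours along 1 chromosome in 1 library per line, and they are not replicates.

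**Figure D5:**
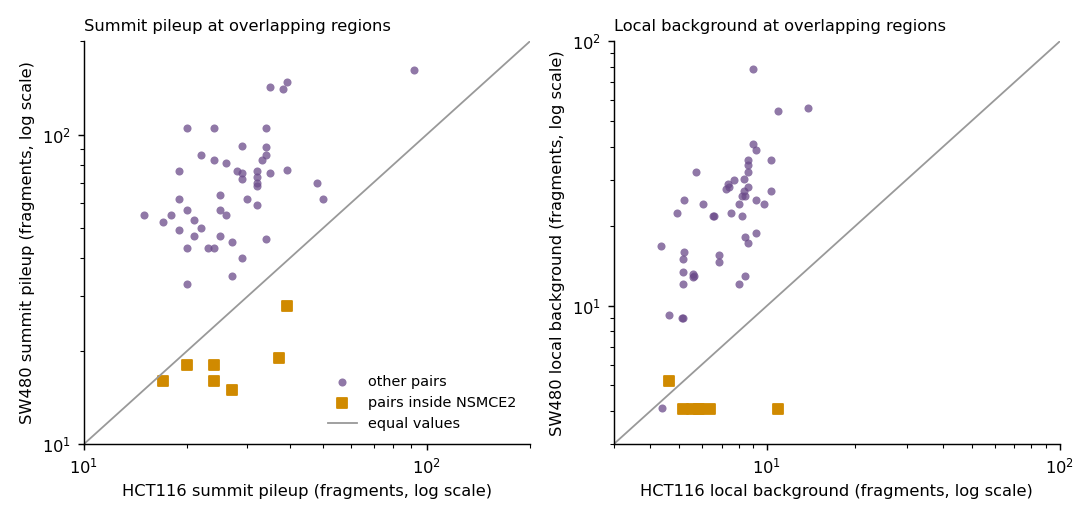
SW480 value (vertical axis) against HCT116 value (horizontal axis) at 56 overlapping pairs of regions, both in fragments on log scales, for summit pileup on the left and local background on the right, with squares for pairs inside NSMCE2 and a line of equal values. Every square lies below the line for pileup and every circle above it.

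The place of the peaks relative to genes was also compared. Of the SW480 peaks here, 48.2% lay inside an annotated gene of any kind, against 71.3% on the rest of the genome, and of the HCT116 peaks 79.1%, against 72.8%. Ends of noncoding genes were within 1 kb of 20 SW480 summits (6.39%), against 9.62% elsewhere, and of 9 HCT116 summits (5.52%), against 12.03%. The gene cover of the stretch was not computed, so these shares are not read as a preference for or against genes. Of the 163 HCT116 peaks, 55 lay in NSMCE2 alone. Neighbouring summits lay a median of 2.14 kb apart in SW480, against 35.1 kb elsewhere, and 2.83 kb apart in HCT116, against 22.6 kb, which restates the density. Merging regions closer than 1 kb left 3.48 per 100 kb in SW480 and 2.14 in HCT116. Median region width was 494 bp in SW480, against 351 bp elsewhere, and 538 bp in HCT116, against 480 bp.

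The other dense windows of SW480 were unlike this one in background and sharing. The 5 Mb windows next in number of SW480 peaks were on chromosome 12 from 20 to 25 Mb, with 276, and on chromosome 7 from 85 to 90 Mb, with 236, and from 90 to 95 Mb, with 235. Their median backgrounds were each 4.09, the lowest level of the list, with median pileups of 18, 17 and 17, against 12.03 and 36 here. HCT116 had 4, 2 and 19 peaks in these windows, against 163 here, and 0.362%, 0.847% and 2.98% of their SW480 peaks were shared, against 15.0%. Of the HCT116 list, the next window was chromosome 19 from 0 to 5 Mb, with 143 peaks, a median background of 5.64 and 7.69% shared, against 6.93 and 30.7% in the MYC and NSMCE2 stretch. After it came chromosome 4 from 30 to 35 Mb, with 123 HCT116 peaks, a median background of 3.75 and none shared, and chromosome 10 from 110 to 115 Mb, with 109. In that last window the median background, 7.29, was above the one here, the median pileup was 24 as here, and 11.01% of the HCT116 peaks were shared. These windows were picked by their counts, so the values describe them and were not tested.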

How the data were processed

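Per the labels' protocols, chromatin was fixed in formaldehyde at 1%, BRD8 was precipitated with 2 µg of antibody, library preparation took 1 ng of DNA, and sequencing read 150 bp from each end. Per the submitters' processing notes, Trimmomatic 0.33, Bowtie2 2.4.1, MACS2, deepTools and the GRCh38 build were used. Each ChIP library has its own list, whose q-values all lie below 0.05. The deposited values are the authors' fold ratio, −log10 p-value, −log10 q-value, score (10 times −log10 q, not used) and positions. Read depth is not given in the sources used here.

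Python 3.11.15, pandas 2.3.3 and scipy 1.17.1 were used. Pileup and background were solved from fold and p, assuming a Poisson p and 1 added to each, with a relative tolerance of 0.0001 on p, for 99.99% of SW480 and 99.996% of HCT116 peaks and all peaks of the stretch; the solver was checked on simulated peaks. Gene positions came from RefSeq (GRCh38.p14), without strand, exons or sequence, so no sequence is shown. Densities have exact Poisson, shares Wilson and medians order-statistic 95% intervals. Genome length runs to the last annotated gene end. No test was made.

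The peaks, gene lists and intervals were chosen with earlier results of these data known, and the 9 intervals, bounded by gene ends, after the counts were seen. Genes named were coding genes of the stretch, noncoding genes with at least 2 peaks and a list around MYC; of these, MTSS1 lies outside the stretch. Peaks named ranked highest by fold, −log10 q, width or sharing, and others illustrate a gene.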

Additional observations from a re-analysis of the deposited data

How the results depend on the processing

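No paired analysis was possible because each line has 1 ChIP library, and leaving out a replicate was not possible for the same reason. Of 99 alternative values of 11 results, 68 stayed within the main 95% interval and 31 did not. No value reversed which line had more peaks, and both lines stayed denser in the stretch than elsewhere. With −log10 q of at least 5, density was 3.10 per 100 kb in SW480 and 1.36 in HCT116, SW480 density was 35.0 times that elsewhere, and median pileups were 41 in SW480 and 29 in HCT116. With 0.5 Mb removed at each end, density was 7.55 in SW480 and 2.20 in HCT116, their ratio 3.43, the excess over the genome 27.9 and 5.00, the shared HCT116 share 50.0%, and HCT116 pileup 26 and background 7.94. With 0.5 Mb added, SW480 density was 5.22 and its excess 19.3. With the HCT116 list cut to the SW480 number, HCT116 density was 1.50, the ratio 4.17, HCT116 pileup 29, and the shared shares 10.2% in SW480 and 40.0% in HCT116. Merging regions closer than 1 kb gave 3.48 in SW480 and 2.14 in HCT116, with excesses of 15.3 and 6.06. Without the gene-end rule the excesses were 15.2 in SW480 and 4.59 in HCT116, and with 5 kb they were 30.3 and 11.2. A gap of up to 1 kb gave shared shares of 23.96% in SW480 and 41.1% in HCT116, and summits within 500 bp gave 20.9% in HCT116. These moves follow from which peaks or bases each setting keeps; the q threshold limits what a list can show.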
